A study of Mus musculus with 2 samples.

Results

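Among live CD45+ cells sorted from mouse tumours grown from MC38 (a colon carcinoma line), a minority carried the collagen-binding matrix protein gene Sparc and the transcription factor gene Sox9 without the leukocyte transcripts that the sort selects for. These cells, called Sox9 Sparc cells here, numbered 2268 of 67031 filtered cells, 950 of 34423 in the BiDT library and 1318 of 32608 in the Ctrl library. The cells were chosen by their own measured UMI counts. A cell was counted when it had at least 500 UMIs (unique molecular identifiers, 1 per captured transcript), at most 10% mitochondrial UMIs, at least 4 UMIs of Sparc, Sox9, Bgn and Serpinh1 together, at least 2 of Sparc and Sox9 together, at most 1 UMI each of Ptprc (the gene of CD45) and Csf1r, and none of Cd3d, Cd3e or Cd3g. The 2 groups were mice bearing MC38 tumours that received BiDT and mice bearing MC38 tumours of the control arm (Ctrl), both sampled on day 19 after inoculation. The labels do not define BiDT, give no strain, sex, age, dose or control agent, and the title of the series names an anti-TIM3 antibody fused to an interferon. Per the labels, cells of 5 biological replicates were pooled into 1 library per group, and both libraries belong to batch 1. With 1 library on each side, no difference between BiDT and Ctrl can be tested, and the intervals given cover counting error only, since pooled animals, digestion and capture differ between the libraries too. The question set for these cells was whether they look like the MC38 line or like tumour fibroblasts, and the second comparison was BiDT against Ctrl.

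Sox9 is a transcription factor of progenitor cells in the intestine and in cartilage, and is active in many carcinomas. Sparc, Bgn (the proteoglycan biglycan) and Serpinh1 (a chaperone of collagen folding) belong to the programme of matrix-producing cells, which fibroblasts share with carcinoma cells that have gone through epithelial-mesenchymal transition. Fibroblasts are usually recognised by the platelet-derived growth factor receptors Pdgfra and Pdgfrb, by fibrillar collagen (Col1a1, Col1a2, Col3a1) and by the small proteoglycans Dcn and Lum. Interferons signal through receptors on nearly every cell type, tumour cells included: the type I receptor (Ifnar1, Ifnar2) activates the kinases Jak1 and Tyk2, and these activate the complex ISGF3, to which STAT2 and IRF9 belong. ISGF3 binds a promoter element rich in GAAA repeats and switches on antiviral genes.

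The markers that chose the cells are a description of the rule, with no test. As CPM, the UMIs of a gene summed over Sox9 Sparc cells and scaled to a common total per library, Sparc stood at 779 in BiDT and 1324 in Ctrl, and Sox9 at 567 in BiDT and 472 in Ctrl. Bgn stood at 690 in BiDT and 885 in Ctrl, and Serpinh1 at 684 in BiDT and 759 in Ctrl. Both Sparc and Sox9 were detected in 723 of the 950 BiDT cells and 1138 of the 1318 Ctrl cells, while Sox9 had no UMI in 122 BiDT and 149 Ctrl cells. The median sum of the 4 markers was 12 UMIs in BiDT and 31 in Ctrl. At the edge of the rule, 78 BiDT and 31 Ctrl cells had a sum of exactly 4, and 86 BiDT and 27 Ctrl cells that passed the other criteria fell just outside with a sum of 3. Of the cells that met the marker criteria, the limits on Ptprc, Csf1r and Cd3 removed 367 of 1317 in BiDT and 509 of 1827 in Ctrl. A single Ptprc UMI remained in 227 BiDT and 299 Ctrl cells.

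The genes that set Sox9 Sparc cells apart from all other filtered cells were matrix genes and others of mixed kind. In both libraries 157 of 3233 genes, 4.86%, were at least 8 times higher in Sox9 Sparc cells than in the rest, which is a description because the same contrast chose the cells. The 30 highest began with the rule's 4 markers and went on with Ccn1 (a matricellular protein), Tcim, the collagen VI genes Col6a1, Col6a2 and Col6a3, Fbln2, Dcn, Cpe, the cardiac troponin gene Tnnt2, the retinoic acid binding protein gene Crabp2, Tm4sf1, Cd34 and the caveolar genes Cavin1 and Cavin3. Further down stood Mmp2, Htra1, Has1, Hspg2, Adamts1, Aqp1, Fstl1, Lamb1, Steap2, Timp3, the basal keratin gene Krt14 and Itgb4, the hemidesmosome integrin of epithelia. Krt14 was 170 CPM in BiDT and 189 CPM in Ctrl cells. Tubb3, a neuron-type tubulin that many carcinomas also express, was 550 CPM in BiDT and 511 CPM in Ctrl, and was detected in 78.2% of BiDT and 81.2% of Ctrl cells, or in 56.0% of BiDT and 50.5% of Ctrl cells after each cell was thinned to 2000 UMIs. In macrophage-gated cells (at least 2 Csf1r and 3 C1q UMIs, no Cd3) it was detected in 5.89% in BiDT and 7.51% in Ctrl, at a median depth of 5973 and 9346 UMIs against 5494 and 9451.5 UMIs in Sox9 Sparc cells. The 30 genes were present in leukocytes at a low and even level: in the macrophage gate they reached 1.53 to 4.61% of their level in Sox9 Sparc cells in BiDT and 2.20 to 3.47% in Ctrl, and in T cell-gated cells (at least 2 Cd3 UMIs, no Csf1r, at most 2 C1q) 1.55 to 3.62% in BiDT and 2.73 to 5.17% in Ctrl.

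Some genes outside the rule also stood higher in Sox9 Sparc cells than in the rest. Hmga2, a chromatin protein of embryonic tissue that is silent in most adult cells, was 386 CPM in BiDT and 363 CPM in Ctrl Sox9 Sparc cells, against 22.6 CPM in BiDT and 21.5 CPM in Ctrl for all other cells. It was detected in 69.5% of BiDT and 75.9% of Ctrl Sox9 Sparc cells, and after thinning in 46.4% of BiDT and 41.5% of Ctrl cells. Igf2bp2, an oncofetal RNA-binding protein, was 125 CPM in BiDT and 130 CPM in Ctrl. Trp53, the tumour suppressor gene of p53, was 333 CPM in BiDT and 276 CPM in Ctrl, and 54.3 and 55.0 CPM in the other cells of the same libraries. Xist, the noncoding RNA of the inactive X chromosome in female cells, went the other way, with 38.7 CPM in BiDT and 24.7 CPM in Ctrl Sox9 Sparc cells and 368 and 226 CPM in the other cells. Most genes of differentiated colon epithelium were close to undetected. The adhesion gene Epcam had 1 UMI in BiDT and 4 in Ctrl, Krt8 had 4 in BiDT and 3 in Ctrl, and Krt18 had 1 in each. Of the 18 genes of that list 9 were at 0 in each library, which allows up to 0.436 CPM in BiDT and 0.195 CPM in Ctrl. Cdh1 and Lgals4 were the 2 that reached 50 UMIs over both libraries. Against all other cells, 5 of the 18 were higher in BiDT and 3 in Ctrl. Cdh1 was detected in 6.11% of BiDT and 9.03% of Ctrl cells, and in 17.7% and 51.6% of macrophage-gated cells. Transcription factors of epithelial-mesenchymal transition were measured, Twist1 at 93.4 CPM in BiDT and 71.5 CPM in Ctrl and Prrx1 at 86.0 CPM in BiDT and 81.1 CPM in Ctrl.

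Fibroblast genes were present in part. Dcn, which binds collagen fibrils, was 298 CPM in BiDT and 561 CPM in Ctrl, and Col3a1 was 302 CPM in BiDT and 617 CPM in Ctrl. Dcn was detected in 47.9% of BiDT and 72.2% of Ctrl cells, and after thinning in 28.3% of BiDT and 47.9% of Ctrl cells. Pdgfrb was 46.6 CPM in BiDT and 50.1 CPM in Ctrl, and Pdgfra 13.2 CPM in BiDT and 19.9 CPM in Ctrl. Both receptors were measured, each in a minority of cells: Pdgfrb in 23.1% of BiDT and 34.5% of Ctrl cells, Pdgfra in 6.95% of BiDT and 15.7% of Ctrl cells. After thinning, Pdgfrb was detected in 9.26% of BiDT and 10.5% of Ctrl cells, and Pdgfra in 2.68% of BiDT and 3.94% of Ctrl cells. Col1a1, the main collagen gene of fibroblasts, was 46.7 CPM in BiDT and 97.1 CPM in Ctrl, and 1 Ctrl cell gave 20.4% of the Ctrl UMIs. Lum had 1 UMI in BiDT and 49 in Ctrl, and Postn, a matrix gene of activated fibroblasts, was 3.93 CPM in BiDT and 26.9 CPM in Ctrl, of which 1 Ctrl cell gave 77.1%. A list of 8 pericyte and smooth muscle genes summed to 164 CPM in BiDT and 185 CPM in Ctrl, against 10.4 and 15.3 CPM in all other cells. Of the 8, 5 in BiDT and 7 in Ctrl stood above the other cells, and 2, Cspg4 and Mcam, reached 50 UMIs over both libraries. Because these libraries count transcript ends, levels are compared within a gene and not between genes.

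**Figure D1:**
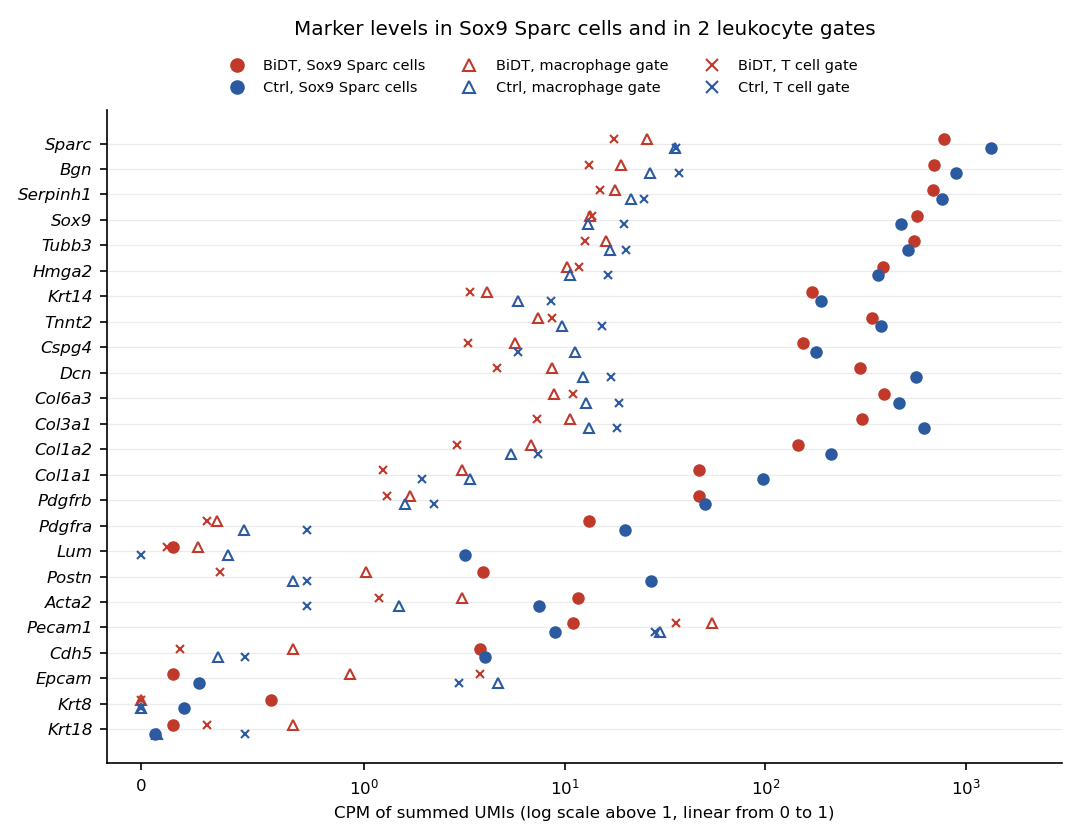
Level of 24 marker genes in CPM (horizontal axis, log scale above 1 and linear from 0 to 1) in Sox9 Sparc cells (filled circles), macrophage-gated cells (triangles) and T cell-gated cells (crosses) of the BiDT library (red) and the Ctrl library (blue). From Sparc down to Pdgfra each gene is higher in Sox9 Sparc cells than in both gates of the same library, while Epcam and Pecam1 are lower and Krt8 and Krt18 are under 1 CPM.

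Fibroblast transcripts were found both in a handful of fibroblast-like cells and in the large Sox9-positive population. Clustering of the 2268 cells gave 11 clusters. The cluster M8 held 11 cells (4 BiDT, 7 Ctrl) and was fibroblast-like by its fixed markers, with 9688 CPM of Col1a1, 572 CPM of Lum, 325 CPM of Xist, 13.0 CPM of Sox9 and no Hmga2 UMI. The cluster M10 held 9 cells (2 BiDT, 7 Ctrl) and was endothelial-like, with 2078 CPM of the junction gene Pecam1, 1539 CPM of the cadherin gene Cdh5 and 240 CPM of Xist, and with neither a Sox9 nor a Hmga2 UMI. At these depths a count of 0 allows up to 39 CPM in M8 and 60 CPM in M10. In each of the other 9 clusters, which hold 2248 cells, Sox9 lay between 435 and 651 CPM and Hmga2 between 224 and 450 CPM, while Lum was at most 2.11 CPM, Cdh5 at most 1.55 CPM and Xist between 14.6 and 112 CPM. Those 9 clusters carry no cell type name, since fewer than 3 of their 10 leading genes were markers of any fixed type. They were led by genes of mitosis in M4 (Ube2c, Cdc20, 298 cells), by S phase and mitosis genes in M9 (Top2a, Mki67, 337 cells), by replication and sterol genes in M2 (Mcm2, Sqle, 308 cells), by Jchain and, after it, by genes such as the metallothionein gene Mt1 and the hypoxia-induced Ndrg1 and Bnip3 in M5 (179 cells) and by Aldh3a1 and the chemokine gene Cxcl1 in M6 (277 cells). Of the 822 Jchain UMIs of Ctrl Sox9 Sparc cells, 802 came from 1 cell. M6 also had the most Col3a1 of the 9, at 1700 CPM. M7 (157 cells) was led by Rhox5, M1 (154 cells) by Tafa1, and M3 (172 cells) by S100a9 and other myeloid genes, with 710 CPM of Lyz2. M0, with 366 cells, was held almost entirely by BiDT (347 cells, 19 in Ctrl) and was led by Zfp791. Among the clusters held mostly by Ctrl were M9 (304 Ctrl, 33 BiDT), M5 (156 Ctrl, 23 BiDT), M2 (226 Ctrl, 82 BiDT) and M6 (194 Ctrl, 83 BiDT).

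**Figure D2:**
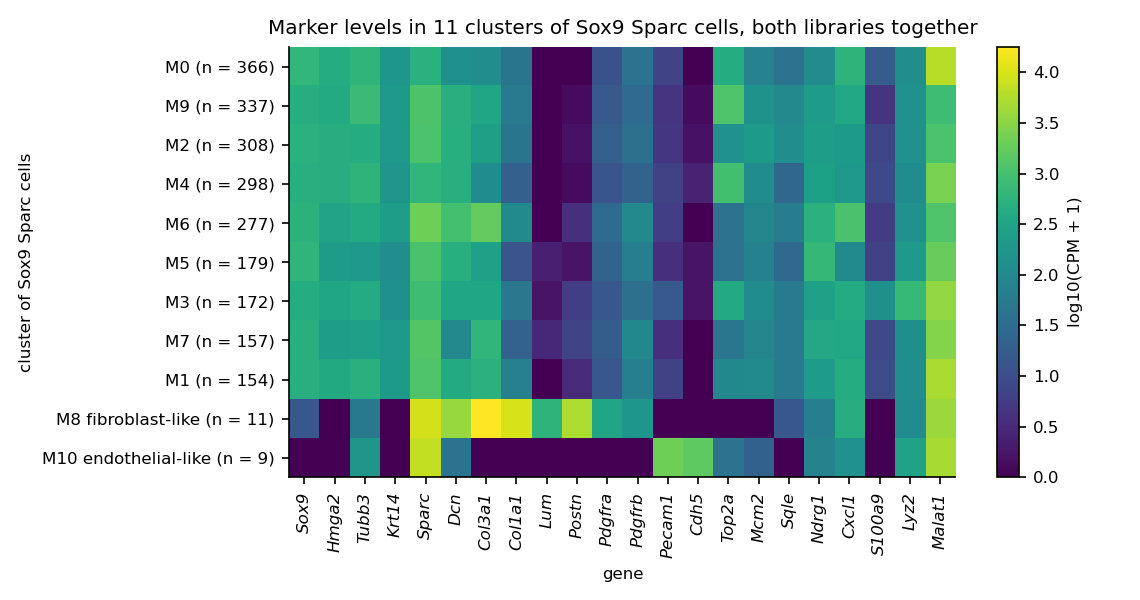
Heat map of log10(CPM + 1) (colour) of 22 marker genes (columns) in the 11 clusters of Sox9 Sparc cells, both libraries together (rows, largest cluster on top, number of cells in brackets). The 11-cell cluster M8 stands out by Col1a1, Lum and Postn, and the 9-cell cluster M10 by Pecam1 and Cdh5, and both lack the Sox9, Hmga2 and Krt14 levels of the other 9.

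Summed over cells, Sox9 and Hmga2 were measured both in Sox9 Sparc cells with fibroblast receptor or proteoglycan transcripts and in those without. Detection of these genes together in single cells was not counted. At least 2 UMIs of Pdgfra, Pdgfrb, Dcn and Lum together were found in 370 of 950 BiDT cells, 38.9% (exact 95% binomial interval 35.8 to 42.1%), and in 887 of 1318 Ctrl cells, 67.3% (64.7 to 69.8%). The same threshold was met by 0.595% of macrophage-gated cells in BiDT and 1.22% in Ctrl, and by 0.431% of T cell-gated cells in BiDT and 0.724% in Ctrl. Within the cells that met it, Sox9 was 542 CPM in BiDT and 490 CPM in Ctrl, against 595 CPM in BiDT and 417 CPM in Ctrl for the other Sox9 Sparc cells. Hmga2 was likewise on both sides, at 401 CPM in BiDT and 384 CPM in Ctrl where the threshold was met, and at 368 CPM in BiDT and 299 CPM in Ctrl where it was not. Cells that met it were deeper, with a median of 8081.5 UMIs in BiDT and 11173 in Ctrl, against 4559.5 in BiDT and 6471 in Ctrl for the others. Thinning each cell to 2000 UMIs left out 54 BiDT and 22 Ctrl cells. The shares were then 15.5% in BiDT and 29.2% in Ctrl, so that the share stayed lower in BiDT at equal depth. Of the 4 genes, Dcn was detected most often after thinning, in 28.3% of BiDT and 47.9% of Ctrl cells. Pdgfrb was detected in 9.26% of BiDT and 10.5% of Ctrl cells, and Pdgfra in 2.68% of BiDT and 3.94% of Ctrl cells. The share is therefore no measure of receptor-bearing cells, and the part of each gene in it was not counted. The 2 clusters named from their markers, fibroblast-like and endothelial-like, held 20 of the 2268 cells. The 2248 cells of the unnamed clusters include M3, whose leading genes were myeloid, and Sox9, which the rule used, says nothing of their identity. Their levels of Hmga2 and their low Lum and Xist were measured over whole clusters and not in each cell.

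The 2 libraries differed in depth and in nuclear RNA. Sox9 Sparc cells had a median of 5494 UMIs (range 1122 to 43550) and 2356.5 genes in BiDT and 9451.5 UMIs (1443 to 56744) and 3224 genes in Ctrl, and 6873419 UMIs were summed in BiDT and 15416762 in Ctrl. Malat1, a noncoding RNA kept in the nucleus, was 3927 CPM in BiDT and 1460 CPM in Ctrl, and exceeded 0.5% of a cell's UMIs in 35.5% of BiDT and 11.5% of Ctrl cells. M0, which held 36.5% of the BiDT cells, was the cluster richest in Malat1, with 6247 CPM. It also had the highest median mitochondrial share of all clusters, 3.29%, and a median of 4411 UMIs, the lowest of the unnamed clusters. A total of 713 barcodes occurred in both libraries, 46 of them on a Sox9 Sparc cell of either, and none was such a cell in both. A doublet score of 0.15 or more was given to 45 BiDT cells (4.74%) and 73 Ctrl cells (5.54%). One Ctrl cell of 21839 UMIs carried 3178 UMIs of Iglc2, 2960 of Ighm and 802 of Jchain, the transcripts of a plasma cell, beside 10 of Sox9. Leukocyte transcripts remained at a low level: the 12 general leukocyte genes summed to 760 CPM in BiDT and 584 CPM in Ctrl, 8.17% and 5.30% of their level in all other cells, and the 13 macrophage genes to 710 CPM in BiDT and 558 CPM in Ctrl, 9.36% and 4.76%. The 11 T and NK genes summed to 135 CPM in BiDT and 20.6 CPM in Ctrl, with 3 of them at 0 in each library, Cd3d, Cd3e and Cd3g by the rule, and the 6 neutrophil genes to 74.3 CPM in BiDT and 25.04 CPM in Ctrl. Whether depth, nuclear RNA or leukocyte RNA has a part in the differences below was not tested, and the values without M0, or in cells with at most 0.5% Malat1, are given where they differ.

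Sox9 Sparc cells took a smaller share of the sorted cells in BiDT. The share was 2.76% (exact 95% binomial interval 2.59 to 2.94%) of filtered BiDT cells and 4.04% (3.83 to 4.26%) of filtered Ctrl cells, a log2 ratio of -0.55. In cells with at most 0.5% Malat1 the shares were 4.67% in BiDT and 5.76% in Ctrl, and without M0 they were 1.75% in BiDT and 3.98% in Ctrl. Taking out M0 removed 347 BiDT and 19 Ctrl cells from the chosen cells and none from the filtered cells. The larger fall in BiDT therefore follows from the makeup of M0. Since the sort selected CD45, whose gene the rule limits to 1 UMI, a share of sorted cells does not measure how many such cells the tumours held.

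Between BiDT and Ctrl, the genes of the type I interferon response differed most. Of 11861 genes with at least 50 UMIs over both libraries, 2032 (17.1%) were at least 1.5 times higher in BiDT and 638 (5.38%) at least 1.5 times lower, with a median log2 ratio of 0.06. The type I interferon list had 48 measured genes, of which 47 passed 1.5-fold upward in BiDT and 1 downward, with a median log2 ratio of 2.74. In the same libraries the list's median was 2.39 in macrophage-gated and 2.41 in T cell-gated cells, with 48 of 49 genes higher in each. All of the 15 highest named ratios in Sox9 Sparc cells belonged to interferon-induced genes, with Slfn4, a Schlafen family gene of mouse myeloid cells, the one outside the list. The list was chosen with earlier results of these data known, so its count is a description to be read beside the share over all genes.

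Of 12 promoters matched to the 15 genes with the highest ratios, 8 show the letters that ISGF3 and other interferon regulatory factors are known to read. Below are the 300 bases from 250 before to 50 after the annotated start of the 4 of these 15 genes with the highest BiDT level that had a promoter in the table, from RefSeq, build GRCm38.p6, on the gene's strand, with each match to GAAANNGAAA or to its reverse complement TTTCNNTTTC in capitals. Isg15 (chr4:156200769-156201068, minus strand) holds 3 overlapping matches, the first starting 78 bases before the start. Ifit3 (chr19:34583279-34583578, plus strand) holds 2 in the reverse complement, at 156 and 122 bases, and Ifit1 (chr19:34640639-34640938, plus strand) holds 2 at 104 and 85 bases. Irf7 (chr7:141266375-141266674, minus strand) holds none in this window.
Isg15: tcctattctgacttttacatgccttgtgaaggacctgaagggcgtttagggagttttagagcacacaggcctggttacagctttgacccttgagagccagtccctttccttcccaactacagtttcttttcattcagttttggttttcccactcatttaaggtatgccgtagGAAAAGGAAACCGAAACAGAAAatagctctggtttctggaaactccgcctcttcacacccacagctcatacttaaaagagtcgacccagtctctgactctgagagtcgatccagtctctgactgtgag
Ifit3: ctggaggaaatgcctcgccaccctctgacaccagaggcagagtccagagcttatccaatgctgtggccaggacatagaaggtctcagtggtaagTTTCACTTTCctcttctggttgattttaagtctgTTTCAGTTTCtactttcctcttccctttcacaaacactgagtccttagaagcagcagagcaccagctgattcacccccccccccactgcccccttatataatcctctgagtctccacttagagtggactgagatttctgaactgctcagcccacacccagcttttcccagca
Ifit1: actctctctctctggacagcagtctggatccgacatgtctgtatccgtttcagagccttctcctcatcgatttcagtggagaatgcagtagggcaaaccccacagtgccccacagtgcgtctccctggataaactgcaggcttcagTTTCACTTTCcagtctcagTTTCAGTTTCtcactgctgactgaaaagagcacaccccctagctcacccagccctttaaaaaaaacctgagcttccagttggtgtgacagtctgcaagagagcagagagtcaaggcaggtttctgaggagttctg
Irf7: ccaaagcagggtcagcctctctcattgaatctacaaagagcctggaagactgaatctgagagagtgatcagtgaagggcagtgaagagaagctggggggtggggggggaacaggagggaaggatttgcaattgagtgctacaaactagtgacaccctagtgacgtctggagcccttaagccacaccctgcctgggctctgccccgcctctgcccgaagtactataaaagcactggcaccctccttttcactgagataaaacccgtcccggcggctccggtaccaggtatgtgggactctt
Over all 27025 genes of the table, 3.99% held a match on either strand, and over the 9337 tested genes that could be matched, 4.01%. The type I interferon list had 18 of 39 matched genes with it (46.2%), the interferon gamma list 11 of 18 (61.1%) and the class I presentation list 5 of 20 (25%). The sterol list had 1 of 15 (6.67%) and the collagen list 0 of 16. Among the 15 genes with the highest ratios 12 were matched, of which 8 held the letters and Irf7, Ifi44, Slfn4 and Cmpk2 did not. A match is a string of letters and not a measured binding site.

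Isg15, a ubiquitin-like modifier, was 1708 CPM in BiDT and 61.0 CPM in Ctrl, a log2 ratio of 4.81 (exact 95% interval 4.71 to 4.91). It was detected in 91.8% of BiDT and 24.9% of Ctrl Sox9 Sparc cells, and after thinning to 2000 UMIs in 80.7% of BiDT and 8.95% of Ctrl cells. Isg15 was thus found in most of these cells in BiDT and in a minority of them in Ctrl. The IFIT genes, whose proteins bind foreign RNA ends, had larger ratios: Ifit1 was 358 CPM in BiDT and 10.1 CPM in Ctrl, 5.14 on the log2 scale (4.91 to 5.39). Ifit3 was 385 CPM in BiDT and 9.02 CPM in Ctrl, 5.42 (5.17 to 5.67). Ifit3b, a near copy of Ifit3 whose reads may be shared with it, was 116 CPM in BiDT and 1.95 CPM in Ctrl, 5.90 (5.38 to 6.48). The 2',5'-oligoadenylate synthases, which activate RNase L on double-stranded RNA, followed, with Oas2 at 105 CPM in BiDT and 2.40 CPM in Ctrl and a log2 ratio of 5.45 (4.98 to 5.97), and Oas3 and Oas1a at log2 ratios of 4.63 and 4.20. Rsad2, the antiviral enzyme viperin, was 289 CPM in BiDT and 9.66 CPM in Ctrl, and its neighbour Cmpk2, a nucleotide kinase, 130 CPM in BiDT and 5.19 CPM in Ctrl, at log2 ratios of 4.90 and 4.64. Ifi44 was 204 CPM in BiDT and 6.36 CPM in Ctrl (5.0, 4.71 to 5.31). Bst2, the tether of budding virus, was 2460 CPM in BiDT and 295 CPM in Ctrl, 3.06 (3.01 to 3.11), and was found in 96.7% of BiDT and 76.9% of Ctrl cells, or after thinning in 91.2% of BiDT and 38.7% of Ctrl cells.

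The machinery of the pathway differed by layer. The receptor genes did not differ by 1.5-fold in either direction: Ifnar1 was 24.9 CPM in BiDT and 33.5 CPM in Ctrl (-0.43, -0.69 to -0.18), Ifnar2 was 44.8 CPM in BiDT and 45.3 CPM in Ctrl (-0.01, -0.21 to 0.18), and Ifngr1 was 62.1 CPM in BiDT and 64.0 CPM in Ctrl. The kinase gene Jak1 was 125 CPM in BiDT and 171 CPM in Ctrl (-0.46). Both ISGF3 genes given here were higher in BiDT: Stat2 was 300 CPM in BiDT and 43.3 CPM in Ctrl (2.79, 2.66 to 2.92), and Irf9 was 111 CPM in BiDT and 41.4 CPM in Ctrl (1.42). Irf7, the factor that amplifies the response, was 319 CPM in BiDT and 11.4 CPM in Ctrl (4.81, 4.59 to 5.04). Feedback inhibitors were also higher, Usp18, which blocks the type I receptor, at 113 CPM in BiDT and 5.25 CPM in Ctrl (4.43) and Socs1 at 111 CPM in BiDT and 33.5 CPM in Ctrl (1.73). Of the 15 genes of the receptor and JAK list, 5 were at least 1.5 times higher and none was 1.5 times lower in BiDT. The shares over all genes were 17.1% higher and 5.38% lower. The RNA sensors Dhx58 and Ddx60 had log2 ratios of 3.97 and 4.32. Ifi27 was the exception of the list, at 31.4 CPM in BiDT and 79.9 CPM in Ctrl (-1.35, -1.56 to -1.14), and it was lower in BiDT in macrophage-gated (-0.95) and T cell-gated cells (-0.90) too.

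The difference was spread over the cells. The list's 49 genes took a median of 1.22% of a cell's UMIs in BiDT Sox9 Sparc cells and 0.129% in Ctrl cells. In macrophage-gated cells the medians were 1.54% in BiDT and 0.235% in Ctrl, and in T cell-gated cells 1.15% in BiDT and 0.194% in Ctrl. Of the 950 BiDT cells, 808 (85.1%) lay above 0.475%, the 95th percentile of the Ctrl cells. Thinned to 2000 UMIs, the median cell held 24 UMIs of these genes in BiDT and 3 in Ctrl.

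**Figure D3:**
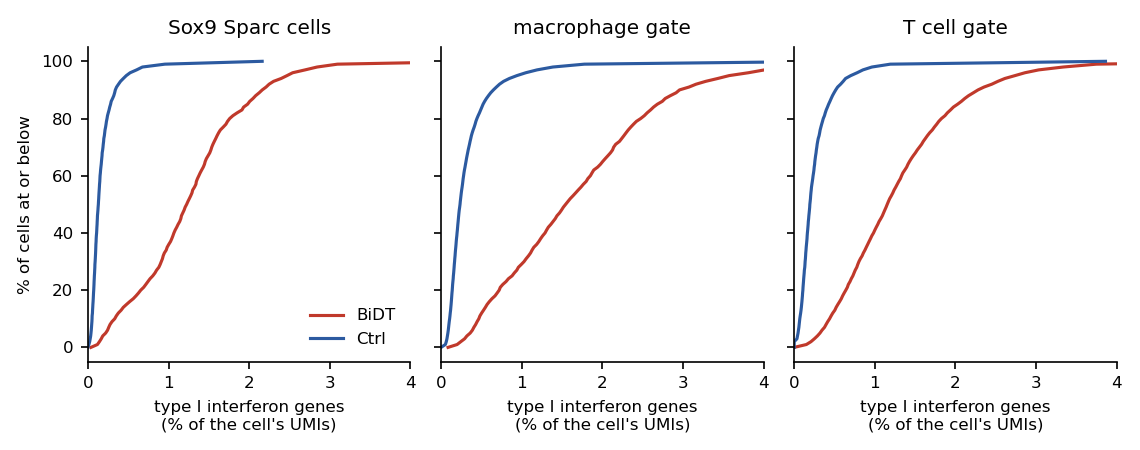
Cumulative share of cells (vertical axis, %) by the share of the cell's UMIs from type I interferon genes (horizontal axis, %, drawn up to 4) in Sox9 Sparc cells, macrophage-gated cells and T cell-gated cells, with BiDT in red and Ctrl in blue. In each panel the BiDT curve lies to the right, with medians of 1.22% in BiDT and 0.129% in Ctrl for Sox9 Sparc cells.

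**Figure D4:**
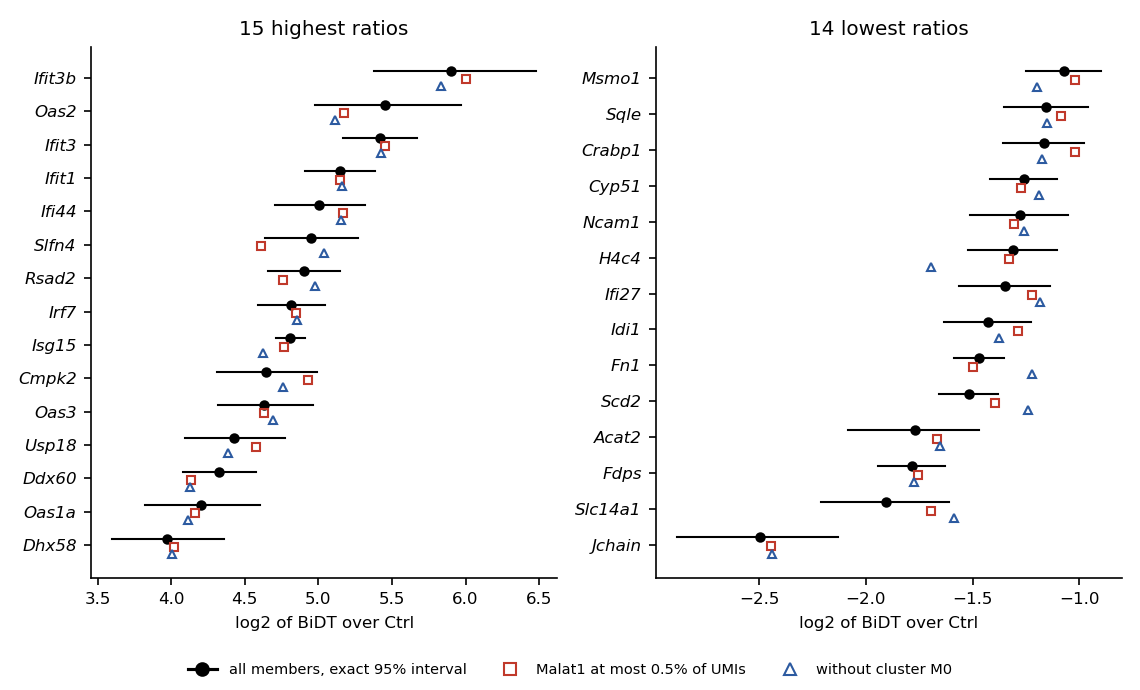
Log2 ratio of BiDT over Ctrl for the 15 genes with the highest (left) and the 14 with the lowest (right) ratio, for all Sox9 Sparc cells with exact 95% intervals (black), for cells with at most 0.5% Malat1 (red squares) and without the cluster M0 (blue triangles). The 15 highest lie between 3.97 and 5.90 for all cells, and each gene keeps its sign in both subsets.

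Interferon gamma targets and the class I antigen presentation pathway were higher in BiDT as well. The counts below stand beside 17.1% higher and 5.38% lower over all genes. Of 27 measured genes of the interferon gamma list 21 were at least 1.5 times higher and none was lower, with a median log2 ratio of 1.55, against 1.46 in macrophage-gated and 0.64 in T cell-gated cells. The lists overlap in what induces them, since type I interferon also raises many of these genes. Irf1, a factor of both responses, was 578 CPM in BiDT and 308 CPM in Ctrl (0.91, 0.85 to 0.97). Among guanylate-binding proteins, which attack intracellular pathogens, Gbp6 had a log2 ratio of 2.47 (2.19 to 2.76), and Gbp2 was 403 CPM in BiDT and 248 CPM in Ctrl (0.70). Cxcl9, a chemokine induced chiefly by interferon gamma, was 43.8 CPM in BiDT and 35.9 CPM in Ctrl (0.29, 0.08 to 0.49), and Ciita, the activator of class II genes, was 4.07 CPM in BiDT and 4.48 CPM in Ctrl (-0.14, -0.82 to 0.52). Of 24 class I presentation genes, 16 were at least 1.5 times higher and none was 1.5 times lower, with a median of 0.91. The class I heavy chain H2-K1 was 4150 CPM in BiDT and 2124 CPM in Ctrl (0.97, 0.94 to 0.99), and H2-D1 was 3425 CPM in BiDT and 2206 CPM in Ctrl (0.63, 0.61 to 0.66). The light chain B2m was 3513 CPM in BiDT and 2728 CPM in Ctrl (0.36), short of 1.5-fold. The non-classical H2-T24 was 17.02 CPM in BiDT and 1.43 CPM in Ctrl (3.58, 2.91 to 4.30), the peptide transporter gene Tap1 334 CPM in BiDT and 141 CPM in Ctrl (1.24), and Nlrc5, the transactivator of class I genes, 142 CPM in BiDT and 45.9 CPM in Ctrl (1.64). Class I genes resemble one another in sequence, so that reads may be shared between them. Among the chaperone genes of the pathway Tapbp had a log2 ratio of 1.08, whereas Canx was 555 CPM in BiDT and 776 CPM in Ctrl (-0.49), and Pdia3 had a log2 ratio of -0.35. Of 8 measured class II genes, 4 were at least 1.5 times lower in BiDT (median -0.53), but 6 of the 8 stood below 10% of the macrophage-gated level in both libraries, where free RNA of other cells can give such counts.

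Secreted signals and ligands for immune receptors were measured in 2 lists. Of 29 measured chemokine and cytokine genes 10 were at least 1.5 times higher and none was 1.5 times lower in BiDT (median 0.43, or 0.19 in cells thinned to 2000 UMIs). Cxcl10, which draws CXCR3-bearing T and NK cells, was 1600 CPM in BiDT and 203 CPM in Ctrl (2.98, 2.92 to 3.04), against ratios of 1.54 in macrophage-gated and 1.36 in T cell-gated cells. It was found in 79.5% of BiDT and 39.5% of Ctrl Sox9 Sparc cells, and after thinning in 63.8% of BiDT and 16.6% of Ctrl cells. Ccl7 and Ccl2, which draw monocytes, were 440 CPM in BiDT and 166 CPM in Ctrl (1.41) and 1057 CPM in BiDT and 622 CPM in Ctrl (0.76). Without M0 the ratio of Ccl2 was 0.50. Il15, a growth factor of NK and memory CD8 T cells, was 52.7 CPM in BiDT and 10.1 CPM in Ctrl (2.39, 2.11 to 2.67). Other secreted factors stayed within 1.5-fold, such as Csf1, the macrophage growth factor, at 240 CPM in BiDT and 173 CPM in Ctrl (0.47), and Vegfa at 429 CPM in BiDT and 371 CPM in Ctrl (0.21). Of 23 immune ligand genes 5 were higher and 1 was lower, shares near the 17.1% and 5.38% over all genes. Cd274, the gene of PD-L1, was 59.1 CPM in BiDT and 22.6 CPM in Ctrl (1.39, 1.18 to 1.60), and Lgals9, a ligand of TIM3, was 68.8 CPM in BiDT and 27.5 CPM in Ctrl (1.32, 1.13 to 1.52). The lower member was Nt5e, the gene of the adenosine-producing enzyme CD73, at 14.99 CPM in BiDT and 25.7 CPM in Ctrl (-0.78).

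Matrix and fibroblast genes had medians below 0 in BiDT, and these were nearer to 0 at equal depth. Their counts are to be read beside 5.38% lower and 17.1% higher over all genes. Of 15 measured fibroblast markers 9 were at least 1.5 times lower and 2 higher (median -0.65), of 18 collagen genes 6 were lower and 1 higher (median -0.52), and of 32 matrix glycoprotein genes 13 were lower and 4 higher (median -0.34). The 13 lower glycoprotein genes include Sparc, which the rule used to choose the cells. In cells thinned to 2000 UMIs before the rule was applied, the medians were -0.25 for fibroblast markers, -0.28 for collagens and -0.13 for matrix glycoproteins. For several of these genes the fibroblast-like cells of M8 decided the value. The endothelial-like cells of M10 were left out with them, but had 0 CPM of Col1a1, Lum and Postn. Without these 20 cells the log2 ratio of Col1a1 was -0.51 instead of -1.06, and Postn, at -2.78 with them, was 1.16. Lum, with 1 UMI in BiDT and 49 in Ctrl, had a log2 ratio of -4.45 (-9.78 to -1.90) with them and -1.16 without. Without those cells, Lum and Postn each fell below the minimum UMI count set for tested genes. Their ratios without those cells therefore show neither a size nor a direction of difference. Dcn (-0.92) and Col3a1 (-1.03) kept most of their difference, at -0.88 and -0.86 without those cells. Fn1, the gene of fibronectin, was 103 CPM in BiDT and 284 CPM in Ctrl (-1.47, -1.59 to -1.35), and was lower in macrophage-gated (-2.25) and T cell-gated cells (-1.96) too. Vim, the intermediate filament gene of mesenchymal cells, was 2399 CPM in BiDT and 3429 CPM in Ctrl (-0.52, -0.54 to -0.49). Mmp2, a gelatinase that degrades basement membrane collagen, was 224 CPM in BiDT and 364 CPM in Ctrl (-0.70). Some matrix genes went the other way. Agrn, a heparan sulfate proteoglycan of basement membranes, was 75.4 CPM in BiDT and 18.03 CPM in Ctrl (2.06, 1.85 to 2.28), Thbs1 was 184 CPM in BiDT and 103 CPM in Ctrl (0.83), and Col7a1, the anchoring fibril collagen of epithelia, was 101 CPM in BiDT and 55.4 CPM in Ctrl (0.86). Without M0 the ratio of Col7a1 was 0.32. Of 20 genes of collagen processing, among them the rule's gene Serpinh1, 2 were lower and 1 was higher (median -0.34). The adhesion gene Ncam1 was 27.2 CPM in BiDT and 66.0 CPM in Ctrl (-1.28, -1.51 to -1.05), the lowest of 21 adhesion genes, of which 4 were lower and 1 was higher.

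**Figure D5:**
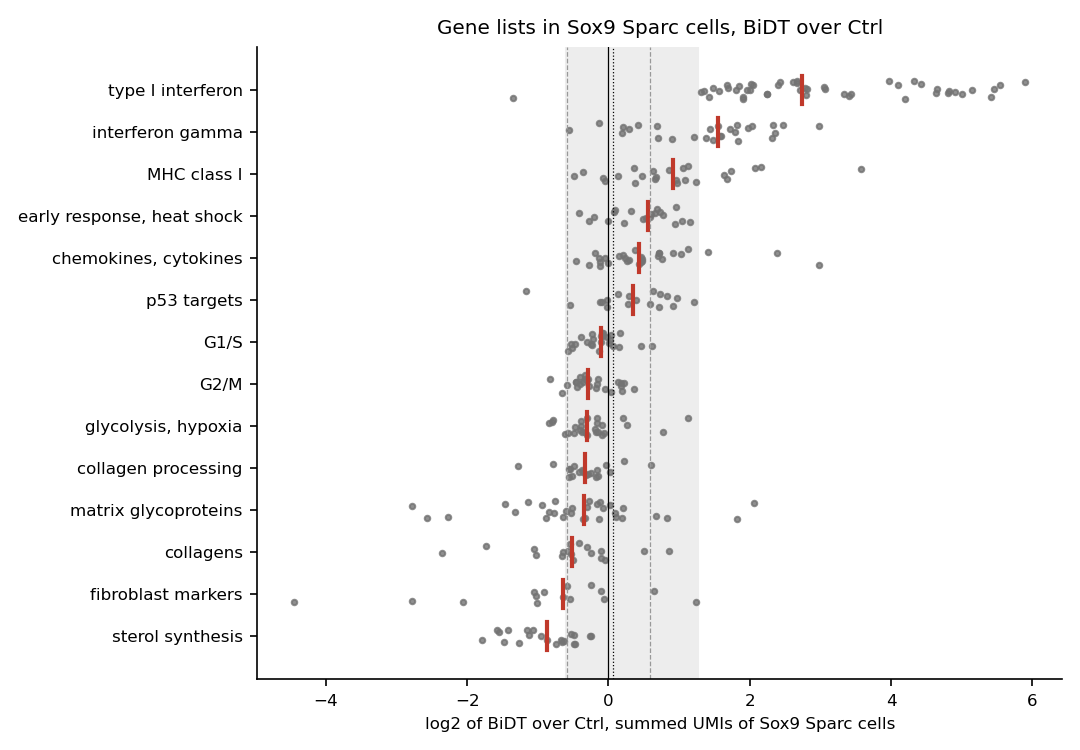
Log2 ratio of BiDT over Ctrl in Sox9 Sparc cells (horizontal axis) for each measured gene (grey points) of 14 gene lists (rows), with the list's median as a red bar, the range of the middle 90% of all 11861 genes shaded, their median dotted and 1.5-fold dashed. The type I interferon, interferon gamma and class I medians lie at 2.74, 1.55 and 0.91, and the fibroblast and sterol medians at -0.65 and -0.87.

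Sterol synthesis genes were lower in BiDT as a group. Of the 21 genes of the list 15 were at least 1.5 times lower and none was higher, with a median of -0.87, and each of the 21 had an interval below 0. Among all genes 5.38% were lower and 17.1% higher. The list's median lay between -0.94 and -0.63 over the alternatives run. It was -1.61 in macrophage-gated and -0.46 in T cell-gated cells. Fdps, which makes farnesyl diphosphate, was 55.1 CPM in BiDT and 190 CPM in Ctrl (-1.78, -1.94 to -1.63). Idi1, Cyp51, Sqle and Msmo1, which act before and after squalene, had log2 ratios of -1.43, -1.26, -1.16 and -1.07. Of related lipid genes among the 15 lowest, Acat2, a cytosolic thiolase, was 14.8 CPM in BiDT and 50.7 CPM in Ctrl (-1.77), and Scd2, a fatty acid desaturase, was 73.8 CPM in BiDT and 211 CPM in Ctrl (-1.52).

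As sums over Sox9 Sparc cells, most proliferation genes differed by less than 1.5-fold, while the clusters that such genes led differed in share between the libraries. M9 held 3.47% of BiDT and 23.1% of Ctrl cells, and M2 held 8.63% of BiDT and 17.1% of Ctrl cells. M4 went the other way, with 15.4% of BiDT and 11.5% of Ctrl cells. The G2/M genes took a median of 0.137% of a cell's UMIs in BiDT and 0.0804% in Ctrl, and the G1/S genes 0.179% and 0.170%. For the counts below, the shares over all genes were 17.1% higher and 5.38% lower. Of 25 G1/S genes 1 passed 1.5-fold upward in BiDT and none downward (median -0.10), and of 25 G2/M genes none was higher and 2 were lower (median -0.28, and -0.05 in thinned cells). In the same libraries the G2/M median was -1.74 in macrophage-gated cells, with 24 of 25 genes lower in BiDT, and 0.52 in T cell-gated cells, with 10 of 25 higher. Top2a, the topoisomerase of dividing cells, was 427 CPM in BiDT and 581 CPM in Ctrl (-0.44, -0.50 to -0.38), and was detected after thinning in 37.9% of BiDT and 37.5% of Ctrl cells. Mki67 was 269 CPM in BiDT and 371 CPM in Ctrl (-0.46), and Ccnb1, the mitotic cyclin, was 21.7 CPM in BiDT and 38.4 CPM in Ctrl (-0.82). Of 26 genes of glycolysis and hypoxia 4 were lower and 2 higher (median -0.30), with Gapdh at 821 CPM in BiDT and 1433 CPM in Ctrl (-0.80) and Bnip3, a mitophagy receptor induced by hypoxia, at 144 CPM in BiDT and 258 CPM in Ctrl (-0.84). Without M0 the ratio of Bnip3 was -0.49 and the list's median -0.13.

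Early response and heat shock genes were more often higher than lower in BiDT. Over the alternatives run, the median of their list lay between 0.28 and 0.65. Of 20 early response and heat shock genes 9 were at least 1.5 times higher and none was lower (median 0.56), among them Atf3, a stress-induced factor, at 222 CPM in BiDT and 100.3 CPM in Ctrl (1.15, 1.05 to 1.25), and Zfp36, which destabilises cytokine mRNA, at 443 CPM in BiDT and 215 CPM in Ctrl (1.04). In macrophage-gated cells of the same libraries the list's median was -0.16, with 1 gene higher and 2 lower. It was 0.19 in T cell-gated cells, with 1 higher and 1 lower. Genes of this kind also respond to tissue digestion, and whether the 2 digests differed cannot be told apart from the treatment. Of 18 p53 targets 8 were higher and 1 was lower (median 0.34, and 0.16 in thinned cells). The death receptor gene Fas was 12.7 CPM in BiDT and 5.45 CPM in Ctrl (1.22, 0.77 to 1.67), the stress cytokine gene Gdf15 164 CPM in BiDT and 86.9 CPM in Ctrl (0.92), and Ccng1, a p53-induced cyclin, 14.7 CPM in BiDT and 33.1 CPM in Ctrl (-1.17). The 24 genes of endoplasmic reticulum and integrated stress were nearly balanced, with 2 higher and 2 lower (median 0.06), and of 14 NRF2 targets 4 were higher and none was lower (median 0.03). Over all genes 17.1% were higher and 5.38% lower, and the next lists lie near these shares or hold few genes. Among 11 genes of SOX and Wnt signalling 3 were higher and none was lower, with Myc at 325 CPM in BiDT and 199.9 CPM in Ctrl (0.70, 0.62 to 0.78) and Sox4 at 710 CPM in BiDT and 461 CPM in Ctrl (0.62). The SOX and Wnt list also holds Sox9, which the rule used. Without M0 the ratio of Myc was 0.41. Of 19 genes of TGF-beta and YAP signalling 3 were higher and 1 was lower, and of 10 factors of epithelial-mesenchymal transition 1 was higher. Id1, a BMP target, was 93.1 CPM in BiDT and 27.5 CPM in Ctrl (1.76, 1.58 to 1.94), and 1.04 without M0. Tubb3 (0.11), Hmga2 (0.09) and Igf2bp2 (-0.06) each differed by less than 1.5-fold.

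The other genes with the lowest ratios had mixed roles. Slc14a1, a urea transporter, was 15.1 CPM in BiDT and 56.6 CPM in Ctrl (-1.90, -2.21 to -1.61). Crabp1, a retinoic acid binding protein, was 40.9 CPM in BiDT and 91.7 CPM in Ctrl (-1.17), and the histone gene H4c4, which has near-identical copies, was 32.6 CPM in BiDT and 80.8 CPM in Ctrl (-1.31). Jchain, a part of secreted antibody, was 9.46 CPM in BiDT and 53.3 CPM in Ctrl (-2.50), but 1 cell gave 97.6% of its Ctrl UMIs.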

How the data were processed

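Per the labels' protocols, live CD45+ cells were sorted from digested tumours, 5 biological replicates were pooled per library, and a 10x Genomics 3' workflow was followed. Build GRCm39 and Cell Ranger 7.1.0 are named per the submitters' processing notes. The barcodes do not have the form that tool writes, so neither step is certain. The authors deposited raw UMI counts for 32589 genes, with no normalization, and 48 symbols borne by several genes were left out of the named genes.

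Counts were summed over the chosen cells of each library, scaled to CPM and set side by side as log2(BiDT/Ctrl), with exact conditional binomial 95% intervals (Python 3.11.15, scipy 1.17.1) for genes with at least 50 UMIs. Shares have exact Clopper-Pearson 95% intervals. PCR copies apart, intervals cover counting error only. Cells were clustered with scanpy 1.11.5 (2000 variable genes, 20 principal components, 15 neighbours, Leiden resolution 0.8). Scrublet's own thresholds marked 0 cells, so a score of 0.15 was used. Alternatives included TMM scaling (edgeR 4.0.16), thinning to 2000 UMIs, stricter rules and other filters. The calculation was tested on simulated data.

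The members and lists were chosen with earlier results of these data known. Named genes are the 15 highest and 15 lowest ratios among genes with at least 50 CPM in either library whose interval excludes 1-fold, the 30 genes highest against all other cells, the rule's genes, and per list up to 4 genes with the largest ratio and up to 4 with the highest CPM. Mitochondrial, ribosomal, receptor, predicted and sex-linked genes, and genes below 10% of the macrophage-gated or T cell-gated level in both libraries, were left out of the first 2 groups. Other genes, Xist among them, were chosen after their values were seen. Promoters were matched by symbol to a RefSeq table of build GRCm38.p6. The fibroblast genes Pdgfra, Pdgfrb, Dcn and Lum made the fibroblast threshold. A few single genes are not reported here.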

Additional observations from a re-analysis of the deposited data

Results flagged for a closer look

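For 2 of the 15 genes with the lowest ratios, the difference between BiDT and Ctrl had opposite signs in Sox9 Sparc cells and in T cell-gated cells, which was not tested. Jchain had a log2 ratio of -2.50 in Sox9 Sparc cells and 5.94 in T cell-gated cells, and 1 Ctrl cell gave 97.6% of its UMIs in Ctrl Sox9 Sparc cells. Acat2 had a log2 ratio of -1.77 in Sox9 Sparc cells and 0.94 in T cell-gated cells, and in macrophage-gated cells it was -2.16.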

How the results depend on the processing

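No paired analysis was possible because each group is 1 library and the groups share fewer than 2 replicate numbers, and for the same reason no replicate could be left out. Over the alternatives run, 160 of 174 values of the 14 main results stayed within the main interval or, for counts, within 1.5-fold, and 173 kept their sign. The type I interferon median stayed between 2.67 and 2.84. The count of genes higher in BiDT (2032) was 1107 after thinning to 2000 UMIs, 1263 without the cluster M0, 3690 with a minimum of 10 UMIs and 6857 with no minimum, and the count lower (638) was 966 and 2784 with those 2 minimums. Higher genes were 76.1% of those called, 66.7% with TMM scaling, 63.5% after thinning and 70.8% without M0; TMM moved every log2 ratio by -0.07. The G1/S median was 0.018 as a mean over cells, and the glycolysis and hypoxia median was -0.13 without M0. The log2 ratio of the share of Sox9 Sparc cells (-0.55) was -0.96 with marker thresholds of 8 and 4, -0.30 with at most 0.5% Malat1 and -1.19 without M0, and that of the share with fibroblast receptor or proteoglycan UMIs (-0.79) was -0.54, -0.60 and -0.51 in the same order. Jchain turned to 2.77 with the stricter leukocyte limits and to 1.89 after thinning. The share of Sox9 Sparc cells without M0 follows from the makeup of M0, and the thinning and the minimums change the genes tested by construction. For the other changes the cause was not tested. The limits on Malat1, on M0 and on the 20 named-cluster cells were chosen after seeing the data. Depth limits genes such as Lum and Epcam, with at most 50 UMIs in all.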

Other observations

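Apod, a lipocalin gene outside every list used here, was 105 CPM in BiDT and 8.37 CPM in Ctrl Sox9 Sparc cells, a log2 ratio of 3.65 (exact 95% interval 3.38 to 3.94), and 10.9 CPM in BiDT and 0.740 CPM in Ctrl for all other cells. Zfp791, a zinc finger gene, was 203 CPM in BiDT and 14.1 CPM in Ctrl Sox9 Sparc cells (3.85, 3.64 to 4.06), and 2.20 on the log2 scale without the cluster M0, which it leads. Both genes were chosen after their values were seen.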
